A study of Mus musculus with 7 samples.

Results

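The expression of 9 genes of periportal hepatocytes and amino acid catabolism, out of 51426 genes counted, was followed in livers of mice on a high-fat diet (HFD). They are Cyp2f2, Hal, Sds, Sdsl, Gls2, Cps1, Otc, Ass1 and Asl, listed by name for their place in liver zonation and in the urea cycle and matched by gene symbol. The list uses no measured value as a criterion, but it was drawn up with earlier results of these data known. The study asked how loss of TET1, an enzyme that oxidises 5-methylcytosine in DNA, affects metabolic dysfunction-associated steatotic liver disease (MASLD). Hepatic RNA was sequenced from 3 WT and 4 TET1 KO mice, all male, labelled C57BL/6J and fed the HFD for 16 weeks from 8 weeks of age. The KO was whole-body and came from the B6;129S4-Tet1tm1.1Jae/J stock, so the deletion was not limited to hepatocytes or to the liver, and no chow-fed liver is compared here. In these bulk samples, fewer cells of a type and less RNA per cell cannot be told apart.

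Blood enters the liver lobule at the portal vein and leaves at the central vein, and hepatocytes along this path divide their labour. Periportal hepatocytes carry most of the breakdown of amino acids, urea synthesis and gluconeogenesis, whereas pericentral hepatocytes carry glutamine synthesis and much of the cytochrome P450 metabolism. Ammonia released from amino acids is joined to bicarbonate by CPS1 and passed by OTC to citrulline in mitochondria, and ASS1 and ASL carry the cycle on in the cytosol.

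None of the 9 genes differed between the genotypes past the test. In edgeR's quasi-likelihood test 0 of 9 had an adjusted p under 0.05, where 2.02% of the 14754 tested genes did, 0.874% with a higher and 1.15% with a lower level in TET1 KO livers. A single member, Hal, had an unadjusted p under 0.05, against 26.3% of all tested genes in either direction and 12.7% in its direction, lower in TET1 KO livers. DESeq2 called 0 of 9 against 9.49% of all tested genes, and 1 member, again Hal, had an unadjusted p under 0.05 there, against 25.4%. The log2 fold changes, TET1 KO against WT, ran from -0.45 for Cps1 to 0.16 for Ass1, with 6 below 0 and 3 above. Their median was -0.19, beside 0.01 over all tested genes. The 95% interval of the fold change lay within a 2-fold change in either direction for 8 of the 9 genes. The exception was Cps1, whose interval of the fold reached from 0.475 to 1.14. Each gene had between 148 and 46923 counts in each liver.

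**Figure D1:**
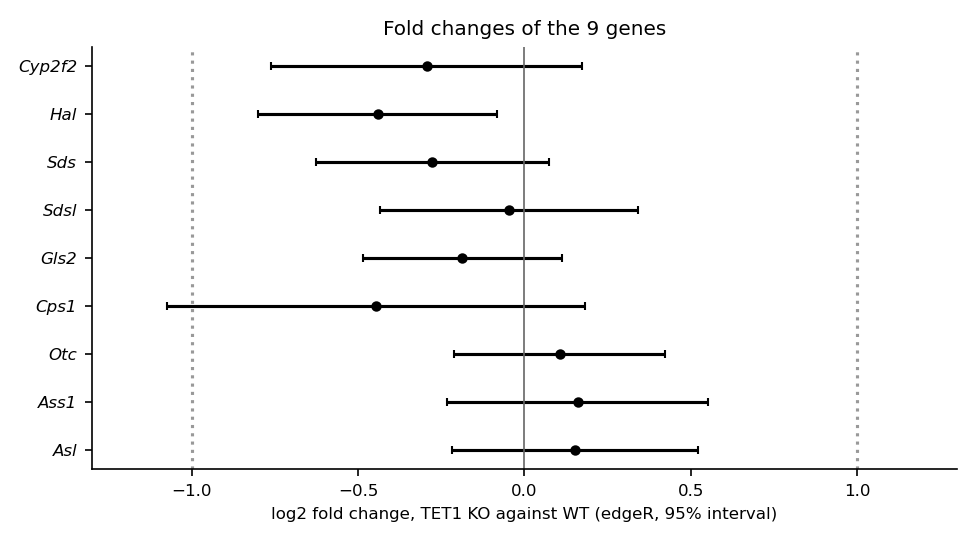
Log2 fold change of each of the 9 genes in TET1 KO against WT livers (x axis, edgeR), with 1 row per gene. Points are estimates, bars are 95% intervals and dotted lines mark a 2-fold change; 8 intervals lie between the dotted lines and the Cps1 interval reaches past the lower one.

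The libraries held 15005277 to 22746138 counts. The targeted gene Tet1 was barely detected, at 1, 4 and 1 counts (WT) and 2, 1, 4 and 1 counts (TET1 KO) where the floor is 3, so its mRNA does not check the genotype labels. Hepatocyte markers were high in all 7 livers, with a sum of 70700 to 88000 CPM in WT and 82600 to 91800 CPM in TET1 KO livers over the 6 markers found. Of the 6, DESeq2 called 1, Apoa1, which was higher in TET1 KO livers with the groups apart (log2 fold change 1.10, adjusted p = 0.0818 by edgeR). The cholangiocyte markers, 6 of 6 found and none at 0 in all livers, summed to 29.7 to 37.9 CPM in WT and 46.2 to 68.0 CPM in TET1 KO livers, while the endothelial markers summed to 143 to 145 CPM and 118 to 141 CPM. Among the endothelial markers DESeq2 called 1, Lyve1, which was lower in TET1 KO livers (log2 fold change -1.08, adjusted p = 0.0778 by edgeR). The other lists, of stellate, Kupffer, T and NK, B, neutrophil, erythroid and adipocyte markers, had overlapping sums. For the 5 erythroid markers, all below 0 and none called by edgeR or DESeq2, the overlap rested on TET1 KO replicate 4, with 1110 CPM, where the other TET1 KO livers had 219 to 488 CPM and the WT livers 777 to 870 CPM. Without TET1 KO replicate 4 the hemoglobin genes Hba-a2, Hbb-bs and Hbb-bt, close copies whose reads can be shared, were called lower, at adjusted p = 0.0413, 0.0299 and 0.0342 by edgeR. Hba-a1 and Alas2 were not called there, and that fit called 464 of 14420 tested genes lower. Leaving out the 1 TET1 KO liver with a high sum favours such calls. Of the 7 stellate and fibroblast markers, the collagen genes Col1a1, Col1a2 and Col3a1 had log2 fold changes of -0.96, -0.84 and -0.99, each at an unadjusted p under 0.05 and called by DESeq2 but not by edgeR. WT replicate 1 was the highest liver for all 3, and without it the values were -0.49, -0.33 and -0.58. TET1 KO replicate 2 stood apart in adipocyte markers, at 18.2 CPM where the other livers had 0.186 to 3.25 CPM. The first principal component of log2 CPM, with 48.7% of the variance, separated the genotypes.

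Levels were compared between genes as CPM per kilobase of exon. The length was the union of all annotated exons of a gene, whether or not liver uses them, so the order depends on that choice. Ass1, the argininosuccinate synthase of the urea cycle, had the highest mean in both genotypes, at 293 ± 33.7 (SD, n = 3) in WT and 327 ± 51.9 (SD, n = 4) in TET1 KO livers. Sdsl, a serine dehydratase-like gene, stood last, at 7.27 ± 1.66 and 7.03 ± 0.54. In WT livers the order between them was Cps1, Cyp2f2, Sds, Otc, Asl, Gls2 and Hal. Ass1 overlapped with Cps1, Cps1 with Cyp2f2, and Asl with Gls2, so these neighbours could not be ranked beyond the spread of the livers. In TET1 KO livers it was Cps1, Cyp2f2, Otc, Sds, Asl, Gls2 and Hal, with overlap between Cps1 and Cyp2f2, Otc and Sds, and Sds and Asl. Together the 9 genes took 0.323% to 0.522% of all counts in a liver.

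**Figure D2:**
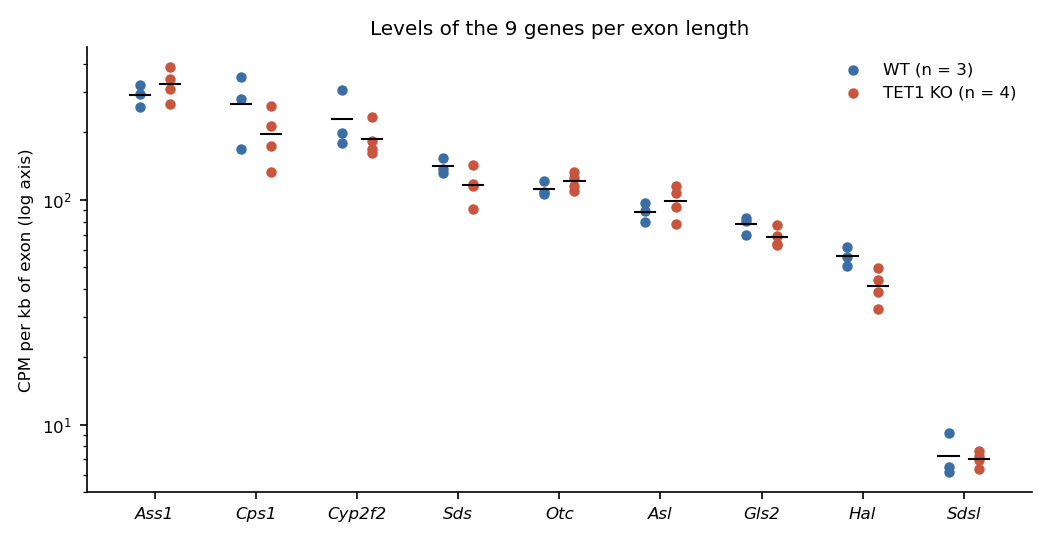
TMM-normalised CPM per kilobase of exon (log axis) of the 9 genes in WT (blue, n = 3) and TET1 KO (red, n = 4) livers, with 1 point per liver and black lines at the group means. Ass1 has the highest and Sdsl the lowest mean in both genotypes, 293 and 7.27 in WT livers.

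The 9 genes lie on 6 chromosomes. On GRCm38.p6, Sdsl (chromosome 5, 120458193 to 120472825) and its paralog Sds (120476547 to 120483932) are neighbours with 3721 bases between them, and Asl lies on the same chromosome. Hal and Gls2 share chromosome 10 with Tet1 at distances of 30.6 and 65.3 Mb. Because TET1 acts on cytosines in CG pairs, the 250 bases before the start site are shown for 3 genes that span the range of CG content, with each CG in capitals (RefSeq, GRCm38.p6, 5′ to 3′ on the plus strand). Reference promoters were matched for 4 members, Ass1, Cyp2f2, Hal and Otc.
Ass1, chr2:31470020-31470269: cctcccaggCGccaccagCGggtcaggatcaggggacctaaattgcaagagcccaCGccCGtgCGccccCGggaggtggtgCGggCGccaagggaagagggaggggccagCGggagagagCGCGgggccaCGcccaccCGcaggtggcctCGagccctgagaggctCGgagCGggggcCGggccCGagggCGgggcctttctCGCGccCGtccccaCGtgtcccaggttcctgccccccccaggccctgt
Hal, chr10:93488518-93488767: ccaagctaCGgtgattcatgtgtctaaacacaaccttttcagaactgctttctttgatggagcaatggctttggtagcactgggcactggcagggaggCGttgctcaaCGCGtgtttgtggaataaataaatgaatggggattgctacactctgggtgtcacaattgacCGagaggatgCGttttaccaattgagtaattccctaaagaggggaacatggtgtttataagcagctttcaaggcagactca
Cyp2f2, chr7:27119705-27119954: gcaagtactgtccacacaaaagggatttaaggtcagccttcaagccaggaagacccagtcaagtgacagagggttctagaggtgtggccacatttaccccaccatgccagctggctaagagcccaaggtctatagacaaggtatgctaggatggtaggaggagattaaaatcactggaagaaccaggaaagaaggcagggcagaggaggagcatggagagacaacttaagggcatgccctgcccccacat

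The Ass1 window held 23 CG pairs, a number that 13.3% of 32851 mouse promoter windows of this length reach or exceed. The Hal window held 6, which is also the median over all windows, the Otc window 1 and the Cyp2f2 window 0, as do 7.87% of all windows. The Otc window (chrX:10252055-10252304) runs past the gene start listed at 10252230, so part of it lies inside the gene. Of 4 further motifs searched on both strands, TATAAA was found in the Hal window alone and in 12.4% of all windows. The cyclic AMP response motif TGACG (17.8% of all windows), CAAAGTC (3.84%) and GTTAAT (6.43%) had no match in the 4 windows. The search describes letters in the reference, and methylation of these windows was not measured in these libraries.

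Hal encodes histidine ammonia-lyase, the first enzyme of histidine breakdown, and had the smallest p of the 9 genes. Its level was 282, 344 and 310 CPM in WT replicates 1 to 3 and 181, 245, 276 and 217 CPM in TET1 KO replicates 1 to 4. All 4 TET1 KO livers lay below all 3 WT livers, with TET1 KO replicate 1 lowest. Hal was the 1 gene of the 9 whose groups did not overlap, where groups were separate in 22.5% of all tested genes and in 10.8% with the TET1 KO livers lower. The log2 fold change of Hal was -0.44 (standard error 0.16, 95% interval -0.80 to -0.08, adjusted p = 0.126 by edgeR), so it missed the threshold. Leaving out each liver in turn moved the value between -0.55 and -0.34, and the adjusted p between 0.11 and 0.39. Likeness was the root mean square difference of standardised log2 CPM over the 7 livers, among 7816 tested genes of which the 9 members were set aside. The genes nearest to Hal were Eif2s1 (0.186), Kpna4 (0.192) and Ebag9 (0.199), and none of these 3 was called.

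Sds encodes serine dehydratase, which turns serine into pyruvate and ammonia. Sds stood at 212, 221 and 247 CPM in WT livers and 185, 147, 189 and 229 CPM in TET1 KO livers. TET1 KO replicate 4 lay within the WT range and the other TET1 KO livers below it. The log2 fold change was -0.28 (standard error 0.16, 95% interval -0.63 to 0.07, adjusted p = 0.285 by edgeR). Sdsl, the neighbouring paralog, measured 9.70, 9.20 and 13.7 CPM in WT livers and 11.4, 10.4, 9.46 and 10.8 CPM in TET1 KO livers. The WT livers enclosed all TET1 KO livers, and the log2 fold change was -0.05 (95% interval -0.43 to 0.34, adjusted p = 0.886), which turned to 0.13 without WT replicate 3. Reads shared between this pair of paralogs may have been split by the counting.

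Gls2 encodes the liver glutaminase, which frees ammonia from glutamine for the urea cycle. Its level was 242, 288 and 280 CPM in WT and 219, 221, 240 and 268 CPM in TET1 KO livers. TET1 KO replicates 1 to 3 lay below the WT range and replicate 4 inside it, and the log2 fold change was -0.19 (standard error 0.14, 95% interval -0.49 to 0.11, adjusted p = 0.394 by edgeR). Cyp2f2, a cytochrome P450 and a widely used periportal marker, measured 364, 626 and 400 CPM in WT and 371, 326, 340 and 475 CPM in TET1 KO livers. WT replicate 2 stood above all other livers and the remaining 6 overlapped. The log2 fold change of Cyp2f2 was -0.29 (standard error 0.21, 95% interval -0.76 to 0.17, adjusted p = 0.386), and it was -0.02 without WT replicate 2.

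Of the mitochondrial urea cycle enzymes, Cps1 varied most and Otc little. Cps1, the ammonia-fixing carbamoyl phosphate synthetase and rate-limiting step of the cycle, measured 933, 1945 and 1551 CPM in WT livers and 741, 964, 1179 and 1454 CPM in TET1 KO livers. The highest 2 values were WT and the lowest was TET1 KO replicate 1, yet WT replicate 1 lay below 3 of the TET1 KO livers. The coefficient of variation of Cps1 was 34.5% in WT and 28.1% in TET1 KO livers, the highest of the 9 genes in both groups. On the log2 scale the difference was -0.45 (standard error 0.29, 95% interval -1.07 to 0.18, adjusted p = 0.333 by edgeR), and it moved to -0.70 without WT replicate 1 and to -0.20 without WT replicate 2. Otc, which joins carbamoyl phosphate to ornithine and lies on the X chromosome, measured 515, 452 and 460 CPM in WT and 465, 531, 561 and 489 CPM in TET1 KO livers. The groups overlapped, and the log2 fold change was 0.11 (95% interval -0.21 to 0.42, adjusted p = 0.66).

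The cytosolic enzymes Ass1 and Asl had fold changes above 0, neither past the test. Ass1 measured 680, 595 and 750 CPM in WT and 717, 613, 792 and 896 CPM in TET1 KO livers. The WT range held TET1 KO replicates 1 and 2, whereas replicates 3 and 4 exceeded it, and the log2 fold change was 0.16 (95% interval -0.23 to 0.55, adjusted p = 0.583 by edgeR). Asl, the argininosuccinate lyase, had 363, 441 and 408 CPM in WT and 488, 357, 423 and 527 CPM in TET1 KO livers. TET1 KO replicates 1 and 4 were above and replicate 2 below the WT livers, with a log2 fold change of 0.15 (95% interval -0.22 to 0.52, adjusted p = 0.582). Asl had the smallest p among the 3 genes above 0, and by the same measure of likeness Coq10b (0.292), Fbxo31 (0.311) and Egln2 (0.315) were nearest to it.

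**Figure D3:**
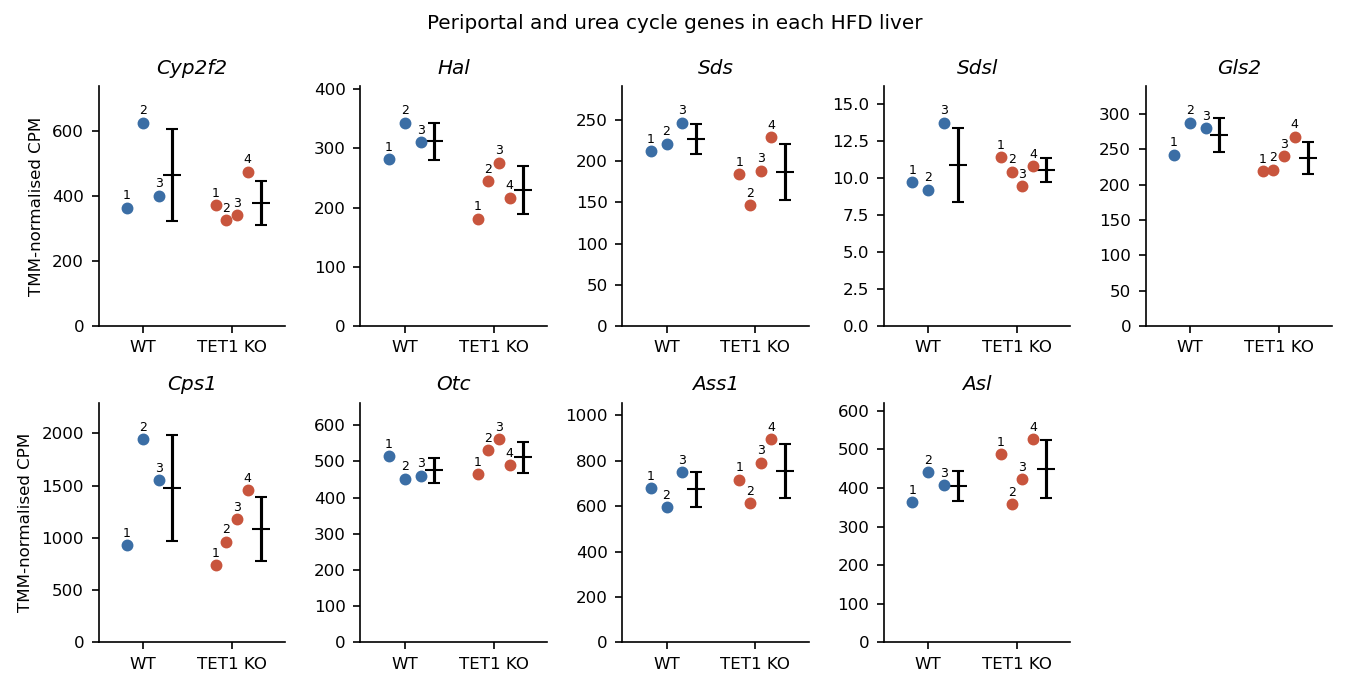
TMM-normalised CPM (y axes, from 0) of each of the 9 genes in each WT (blue) and TET1 KO (red) liver, with replicate numbers above the points and the group mean ± SD in black beside them. The groups are separate for Hal and overlap for the other 8 genes.

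The livers did not rank alike across the genes. WT replicate 2 was the highest of the 7 livers for 4 genes and the lowest for 3, and WT replicate 3 was the highest for 2. Among the TET1 KO livers, replicate 4 was the highest for 6 of the 9 genes, and no gene had its lowest value there. TET1 KO replicates 1 and 2 were each the lowest of all 7 livers for 3 genes. Within the urea cycle the log2 ratio of Cps1 to Ass1 counts was 0.456, 1.71 and 1.05 in WT and 0.0479, 0.654, 0.573 and 0.699 in TET1 KO livers. The ratio overlapped between the groups, with WT replicate 1 inside the TET1 KO range.

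Other genes of nitrogen handling were counted from lists of the same pathways, without the 9 members. Of 10 tested partners of the urea cycle (ammonia supply, mitochondrial carriers, urea export), none was called by edgeR, with 2 at an unadjusted p under 0.05 and 2 called by DESeq2 (Glud1 and Slc38a3). The smallest p there belonged to Slc38a3, a glutamine transporter, at 1001 ± 32.9 CPM (SD, n = 3) in WT and 1421 ± 127 CPM (SD, n = 4) in TET1 KO livers (log2 fold change 0.51, adjusted p = 0.105 by edgeR). Of 5 other genes listed with histidine catabolism (Uroc1, Amdhd1, Ftcd, Hdc and Amdhd2, the last of which acts on an amino sugar and not on histidine) none was called, none had an unadjusted p under 0.05, and DESeq2 called none. Ftcd, which acts later in the path that Hal opens, had the smallest p there, with a log2 fold change of 0.25 (adjusted p = 0.352).

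In serine, glycine and threonine catabolism, edgeR called 1 gene higher and 1 lower of 12 tested genes, against 2.02% of all tested genes. DESeq2 called 4 of the 12, against 9.49% of all tested genes. Gldc, the glycine decarboxylase of the glycine cleavage system, measured 115, 171 and 118 CPM in WT and 29.2, 68.7, 68.8 and 67.3 CPM in TET1 KO livers. All TET1 KO livers lay below the WT livers, and Gldc fell by 1.20 on the log2 scale (standard error 0.27, adjusted p = 0.0499 by edgeR). The call was at the limit and was lost without WT replicate 1, 2 or 3 (adjusted p = 0.0549, 0.244 and 0.0646) and without TET1 KO replicate 2 or 3 (adjusted p = 0.089 and 0.102). Gcat, which splits the threonine product 2-amino-3-ketobutyrate into glycine and acetyl-CoA, stood at 30.6 ± 1.36 CPM (SD, n = 3) in WT and 47.4 ± 2.51 CPM (SD, n = 4) in TET1 KO livers and rose by 0.63 on the log2 scale (adjusted p = 0.0259 by edgeR). Its call was lost without WT replicate 2 or 3 (adjusted p = 0.124 and 0.0848) and without TET1 KO replicate 2 or 3 (adjusted p = 0.0814 and 0.077).

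Of 15 genes of phenylalanine, tyrosine and tryptophan catabolism, 1 was called by edgeR, with 1 higher and 2 lower at an unadjusted p under 0.05. DESeq2 called 3, Afmid higher and Tdo2 and Kynu lower. Afmid, the kynurenine formamidase, measured 41.0, 40.7 and 30.1 CPM in WT and 64.0, 73.3, 62.4 and 63.7 CPM in TET1 KO livers. All TET1 KO livers lay above the WT livers, and Afmid rose by 0.82 on the log2 scale (standard error 0.14, adjusted p = 0.0214 by edgeR). The call was lost without WT replicate 2 or 3 (adjusted p = 0.0873 and 0.0626) and without TET1 KO replicate 2 or 3 (adjusted p = 0.0639 and 0.066).

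None of 12 methionine and cysteine genes, 19 branched-chain amino acid, lysine and proline genes or 9 transaminase and amidase genes was called by edgeR. At an unadjusted p under 0.05 there were 1 higher and 1 lower, 5 higher and 5 lower, and 2 higher and 0 lower, and DESeq2 called 2, 3 and 1. The smallest p values in these lists belonged to Ahcy, the adenosylhomocysteinase (log2 fold change 0.68, adjusted p = 0.055 by edgeR), Ivd, the isovaleryl-CoA dehydrogenase (0.45, adjusted p = 0.0768), and Kyat1, a kynurenine aminotransferase (0.52, adjusted p = 0.0834). Over all 71 tested amino acid catabolism genes besides the members, Amdhd2 included, edgeR called 2 higher and 1 lower, where it called 2.02% of all tested genes, and DESeq2 called 13, where it called 9.49%. At an unadjusted p under 0.05 there were 12 higher and 12 lower, against 26.3% of all tested genes in either direction. Of the 71 genes 29 lay above 0 and 42 below, and the median log2 fold change was -0.09 beside 0.01 over all tested genes. Of 12 amino acid transporters 1 was called. Slc43a1, a carrier of large neutral amino acids, stood at 2.55 ± 0.38 CPM (SD, n = 3) in WT and 6.43 ± 1.05 CPM (SD, n = 4) in TET1 KO livers and rose by 1.33 on the log2 scale (adjusted p = 0.0151 by edgeR), and its call was lost without WT replicate 2 (adjusted p = 0.0772).

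**Figure D4:**
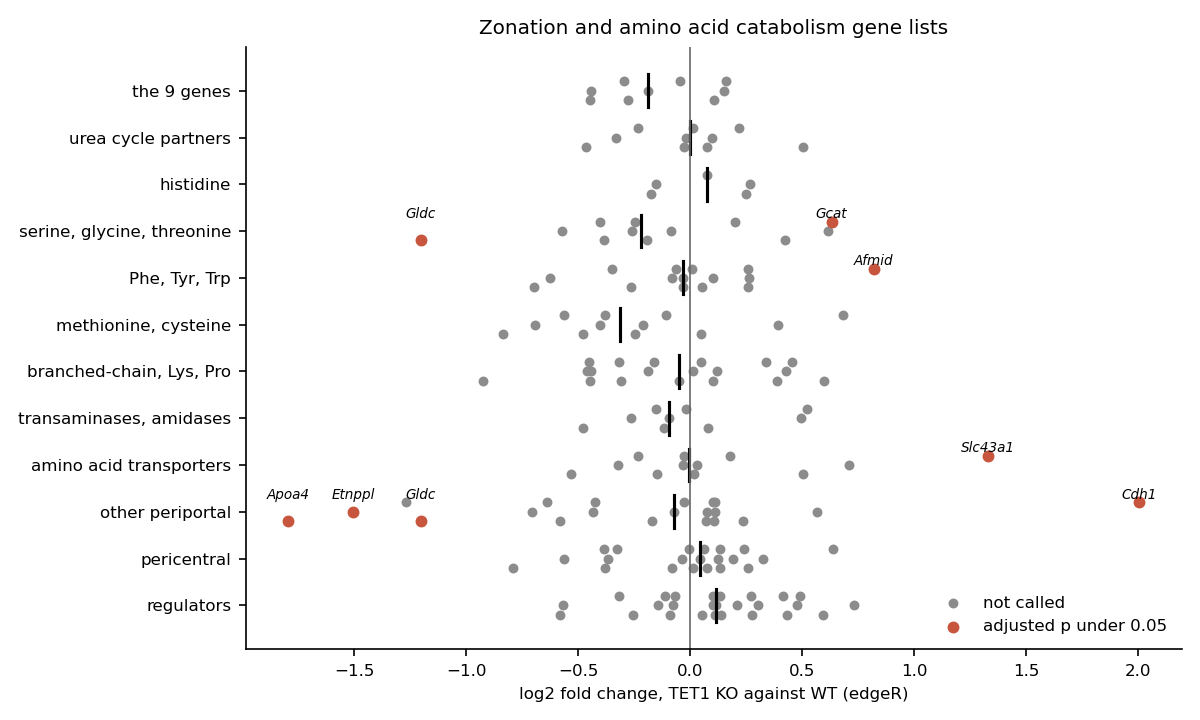
Log2 fold change in TET1 KO against WT livers (x axis, edgeR) of every tested gene in each list (rows), with called genes in red and named, other genes in grey and a black bar at each list's median. No point in the row of the 9 genes is red, and the points farthest from 0 are Cdh1 at 2.01 and Apoa4 at -1.79 among the other periportal genes.

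Among 21 other periportal hepatocyte genes, edgeR called 1 higher and 3 lower, against 0.874% and 1.15% of all tested genes. DESeq2 called 7 of the 21, against 9.49% of all tested genes. At an unadjusted p under 0.05 there were 2 higher and 8 lower, where 12.7% of all tested genes were lower, and the groups were apart for 9 genes, where this held for 22.5% of all tested genes. Fbp1, the gluconeogenic fructose bisphosphatase, had a log2 fold change of -1.27 (adjusted p = 0.063 by edgeR), with the groups apart, and was called by DESeq2. Apoa4, an apolipoprotein, measured 951, 844 and 500 CPM in WT and 215, 139, 176 and 352 CPM in TET1 KO livers, and fell by 1.79 on the log2 scale (adjusted p = 0.0201). Etnppl, the ethanolamine-phosphate phospho-lyase, stood at 104 ± 42.3 CPM (SD, n = 3) in WT and 36.8 ± 10.3 CPM (SD, n = 4) in TET1 KO livers, fell by 1.51 on the log2 scale (adjusted p = 0.0286), and was joined by Gldc, described above. The groups were apart for Apoa4 and for Etnppl. The Apoa4 call was lost without WT replicate 2 (adjusted p = 0.106), TET1 KO replicate 2 (0.0512) or TET1 KO replicate 3 (0.0686), and the Etnppl call without WT replicate 1 or 2 (0.0531 and 0.154) or TET1 KO replicate 2 or 3 (0.0606 and 0.0882).

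Cdh1, which encodes E-cadherin of periportal hepatocytes and of bile duct epithelium, was the gene called higher. It measured 2.71, 3.23 and 6.24 CPM in WT and 20.7, 15.2, 12.9 and 16.2 CPM in TET1 KO livers, a rise of 2.01 on the log2 scale (standard error 0.29, adjusted p = 0.00958 by edgeR). The call was lost without WT replicate 2 (adjusted p = 0.0772). The cholangiocyte markers had 5 of 5 tested genes above 0, 4 at an unadjusted p under 0.05, none called by edgeR and 3 called by DESeq2, and sums that did not overlap (29.7 to 37.9 CPM against 46.2 to 68.0 CPM). TET1 KO replicate 1 and WT replicate 3 had the highest Cdh1 and the lowest sum of their groups. Most of the sum in each liver was Spp1, at 29.1, 24.3 and 19.8 CPM in WT and 30.7, 43.7, 32.3 and 39.2 CPM in TET1 KO livers. TET1 KO replicate 4 stood apart in Krt19 (6.68 CPM against 1.06 to 1.69 CPM in the other TET1 KO livers) and in Epcam (4.87 CPM against 0.689 to 0.986 CPM). Without that liver, an alternative added after seeing the data, all 5 markers were still above 0 and 2 had an unadjusted p under 0.05, with Sox9 called by edgeR, while the log2 fold changes of Krt19 and Epcam went from 1.48 to 0.43 and from 2.09 to 0.89. The part of these markers in the Cdh1 difference was not tested.

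At the other end of the lobule, none of 21 pericentral genes was called by edgeR or DESeq2, with 1 at an unadjusted p under 0.05. That gene was Cyp1a2 (log2 fold change 0.64, adjusted p = 0.149 by edgeR). Glul, the glutamine synthetase that takes up the ammonia left over by the urea cycle, measured 980, 1011 and 1157 CPM in WT and 569, 948, 809 and 933 CPM in TET1 KO livers. The groups were apart, with TET1 KO replicate 1 lowest, and Glul differed by -0.37 on the log2 scale (adjusted p = 0.268 by edgeR). Leaving out 1 liver moved the Glul value between -0.46 and -0.23. Oat, the ornithine aminotransferase, had 813, 765 and 864 CPM in WT and 210, 823, 1073 and 971 CPM in TET1 KO livers. Oat differed by -0.08 on the log2 scale (adjusted p = 0.915), a value that turned to 0.23 without TET1 KO replicate 1. Cyp2e1 had a log2 fold change of 0.12 (adjusted p = 0.821).

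The balance of the zones was described for each liver as the mean log2 CPM of the 9 genes minus that of the pericentral genes. It was 2.04, 2.29 and 2.08 in WT and 2.33, 1.75, 2.03 and 2.20 in TET1 KO livers, or 2.14 ± 0.137 (SD, n = 3) and 2.08 ± 0.248 (SD, n = 4). The TET1 KO livers reached both above and below the WT livers, so the difference of -0.06 was smaller than the spread within either group. For the other periportal genes the same balance was 2.48 ± 0.237 and 2.30 ± 0.297, also with overlap.

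**Figure D5:**
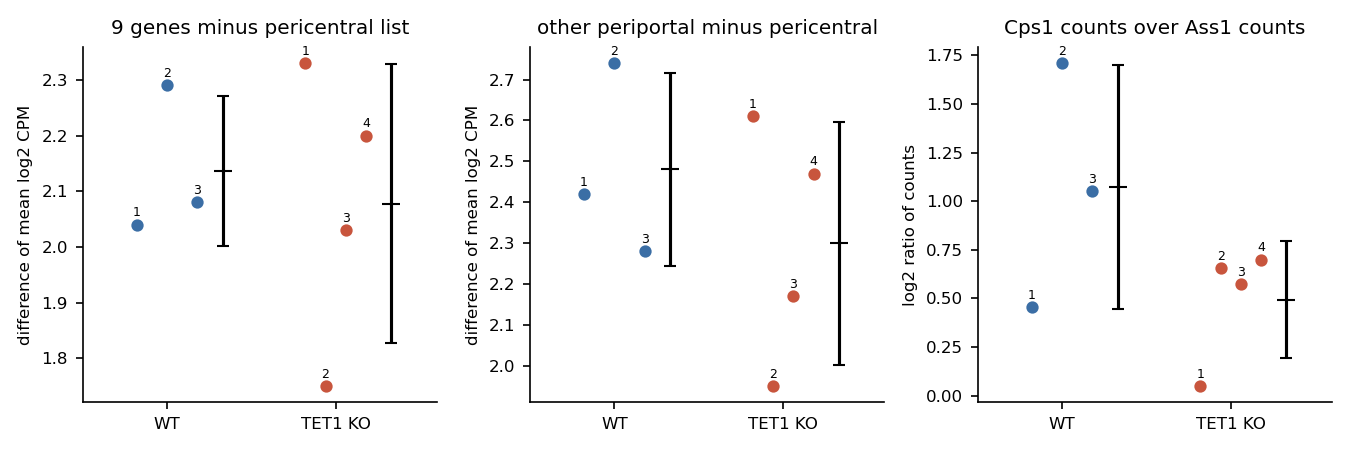
Mean log2 CPM of the 9 genes minus that of the pericentral genes (left), the same for the other periportal genes (middle), and the log2 ratio of Cps1 to Ass1 counts (right) in each WT (blue) and TET1 KO (red) liver, with replicate numbers and the group mean ± SD in black. The axes do not start at 0, and the groups overlap in all 3 panels.

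Regulators of these pathways gave no call by edgeR. The 26 factors included the glucagon receptor, CREB and its coactivators, liver-enriched transcription factors and members of the Wnt pathway. At an unadjusted p under 0.05, 6 were higher and 1 lower, against 26.3% of all tested genes in either direction. DESeq2 called 3 (Gcgr, Crtc2 and Ctnnb1), against 9.49% of all tested genes. Crtc2, a coactivator of CREB, had the smallest p, with a log2 fold change of 0.49 (adjusted p = 0.069 by edgeR). Tet2 and Tet3, the other genes of the TET family, had log2 fold changes of -0.01 (adjusted p = 0.984) and 0.32 (adjusted p = 0.223).

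Without WT replicate 2 the number of genes called over all tested genes fell from 129 higher and 169 lower to 16 and 22, and without TET1 KO replicate 4 it grew to 427 and 464. With scaling by library size only it was 107 and 312. Across 14 alternative settings, giving 126 fits of the 9 genes, none called a member, and the lowest adjusted p was 0.0739, for Hal with DESeq2.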

How the data were processed

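RNA-seq libraries of HFD liver (3 WT, 4 TET1 KO) were compared, with groups and replicate numbers from the labels. The authors deposited raw read counts per gene, not normalized, 1 table per mouse. The submitters' processing notes name Trimmomatic 0.36, GSNAP, featureCounts 1.5.3 and GRCm38. The kit marks strand, but the strand setting of the counting is not given in the sources used here, so overlapping antisense genes are uncertain. After 5 repeated entries were left out, 51426 genes were joined by identifier.

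The main test was that of edgeR 4.0.16 in R 4.3.3 (filterByExpr, TMM, glmQLFit, glmQLFTest, no covariates), and Benjamini-Hochberg adjustment covered all 14754 tested genes. A call was an adjusted p under 0.05. The common biological coefficient of variation was 0.208, and library sizes were 15005277 to 22746138 counts. A second test used DESeq2 1.42.0. Both were tried on simulated data, in which 200 of 14794 genes had been changed. There edgeR recovered 200 with 7 false calls and DESeq2 199 with 11. These counts hold only for changes of the size simulated. They do not show whether smaller changes would be called, so nothing about the uncalled periportal and urea cycle genes follows from them. CPM values carry the TMM scaling, with a prior count of 2 on the log2 scale. No pair of libraries of 1 group agreed within sampling noise, with a lowest chi-square per degree of freedom of 27.4. Nothing in the sources used here says how mice were assigned to batches.

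Exon lengths came from GENCODE M1, which is on another build and was used for length only. Positions and promoters came from RefSeq tables of GRCm38.p6. A further gene of the list and a further marker are not reported here. The members and the gene lists were chosen with earlier results of these data known. The genes named are every member, the called genes of each list (at most 5, by p) or else its gene of smallest p, Glul, Cyp2e1, Oat, the Tet genes, and the 3 genes nearest in pattern to the member of smallest p in each direction among genes of at least 10 CPM. Glud1, Gcgr, Ctnnb1, the cholangiocyte markers Krt19, Epcam, Sox9 and Spp1, the collagen and hemoglobin genes, Alas2, Apoa1, Lyve1, Fbp1, Tdo2, Kynu, the other genes listed with histidine catabolism and the genes with 1 TET1 KO liver far from the rest were named after their values were seen. Alternatives were DESeq2, its size factors, library size only, no filter, a minimum of 10 counts per library, robust dispersions, a block for the replicate number, and each mouse left out. Plots were made in Python 3.11 (matplotlib 3.10.9).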

Additional observations from a re-analysis of the deposited data

Results flagged for a closer look

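The genes of the lists were searched for a TET1 KO liver far from the other 3. The measure was the gap to its nearest neighbour over the range of the 4 livers (Dixon's 95% limit). Cell type marker genes, such as Krt19 and Epcam, were not searched one by one. Of the 163 genes searched, 14 had such a liver. Chance alone gives about 1 in 20, or 8.2 genes, and none of the 9 periportal and urea cycle genes was among them. TET1 KO replicate 1 was the far liver for 11 genes. These were Aqp9 (gap 0.97 of the range, 329 CPM), which carries urea and glycerol, Gldc (0.963), Fah (0.887), Bhmt (0.868), Cbs (0.839), Bckdhb (0.892), Slc38a4 (0.831), Mup20 (0.836), Cyp2e1 (0.84), Gulo (0.855) and Creb1 (0.916). TET1 KO replicate 2 was far for Afmid (0.854, at 73.3 CPM) and Sp5 (0.965), and TET1 KO replicate 4 for Tet3 (0.833). Of 10 marker lists, the summed level was far in TET1 KO replicate 2 for T and NK cell markers (0.874, at 5.99 CPM) and adipocyte markers (0.976, at 18.2 CPM).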

How the results depend on the processing

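All 9 genes stayed uncalled under the 14 alternatives. Leaving out 1 liver moved the log2 fold change of Cyp2f2 between -0.45 and -0.02, Cps1 between -0.70 and -0.20 and Sdsl between -0.16 and 0.13, the 1 reversal among the members (without WT replicate 3). Ass1 moved between 0.07 and 0.23, Asl between 0.06 and 0.23 and Otc between 0.05 and 0.16. With library size only, Ass1, Asl and Otc had 0.07, 0.06 and 0.01. Over all genes, 129 higher and 169 lower calls became 693 and 707 with DESeq2, 245 and 347 without a filter on low counts, 107 and 312 with library size only, and 16 to 427 and 22 to 464 with a liver left out. Library size only moved the median log2 fold change of all genes from 0.01 to -0.08. DESeq2 called 2 urea cycle partners, 4 serine, glycine and threonine genes, 3 phenylalanine, tyrosine and tryptophan genes, 2 methionine and cysteine genes, 3 branched-chain, lysine and proline genes, 1 transaminase gene, 2 transporters, 7 other periportal genes and 3 regulators. With at least 10 counts in every library, and with robust dispersions, 1 serine, glycine and threonine gene was called, since Gldc had an adjusted p of 0.0532 and 0.0579. With a liver left out, calls ranged from 0 to 3 (serine, glycine and threonine), 0 to 1 (phenylalanine, tyrosine and tryptophan; methionine; branched-chain; transaminase; transporter), 0 to 6 (other periportal) and 0 to 3 (regulators). With a liver left out, Oat ranged from -0.296 to 0.233 (above 0 without TET1 KO replicate 1) and Tet2 from -0.236 to 0.273 (above 0 without WT replicate 1 or TET1 KO replicate 1 or 4). The cause of these shifts was not tested.

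The deviations of same-numbered livers had correlations of 0.209, -0.123 and -0.096, within the range of -0.3 to 0.311 over all pairs of a WT and a TET1 KO liver. With so few livers this cannot decide whether the numbers pair the mice, and the labels do not say. With the replicate block on the 6 livers numbered 1 to 3, 696 genes were higher and 687 lower, against 427 and 464 for these livers without the block, which is the fit without TET1 KO replicate 4. The block called 4 serine, 2 phenylalanine, 3 methionine, 3 branched-chain, 3 transaminase, 8 other periportal, 1 pericentral (Cyp1a2) and 3 regulator genes. Under the block Cyp2e1 turned to -0.00717 and Tet2 to 0.111. Depth limited Tet1, at 1 to 4 counts, whereas each of the 9 genes had at least 148 counts in every liver.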
